A study of Mus musculus with 5 samples.

Results

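The replication-dependent histone genes of the mouse were read in total RNA from 5 libraries labelled as dorsolateral prostate. Members were the genes whose GRCm38-era symbols begin with Hist1h, Hist2h, Hist3h or Hist4h, with names ending in -ps left out. This gave 67 of the 51912 gene IDs in the deposited tables. By class, 6 encode the linker histone H1, 20 encode H2A, 16 encode H2B, 12 encode H3 and 13 encode H4. On the GRCm38 build 54 of them lie on chromosome 13, 10 on chromosome 3, 2 on chromosome 11 and 1 on chromosome 6, and 2 of the H2A members, Hist1h2aj and Hist1h2al, are annotated as pseudogenes.

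Replication-dependent histone genes are transcribed mainly in S phase, when new DNA must be packed into nucleosomes. The core histones H2A, H2B, H3 and H4 form the nucleosome around which DNA is wrapped, and H1 binds the linker DNA between nucleosomes. Their mRNAs are unlike others in that most have no poly(A) tail and end just after a short stem-loop, which the stem-loop binding protein recognises. Libraries made from total RNA without poly(A) selection can therefore hold them. A second set of histone genes, the replication-independent variants, is expressed outside S phase and makes polyadenylated mRNA.

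All 5 mice were males of 7 months that carried Ghr flox/flox alleles and the SV40 C3(1) T-antigen+/0 transgene, in which a prostate steroid-binding protein promoter from rat drives a viral oncogene. Tamoxifen was given to every mouse at 250 mg/kg once a day over 5 days, and the dorsolateral prostate was collected 1 month later. The 2 mice called the tamoxifen control carried no listed Cre, and the 3 mice of the Ghr deletion group also carried ROSA26Cre-ERT2+/0, a tamoxifen-activated recombinase expressed from a broadly active locus. The deletion of Ghr, the growth hormone receptor gene, and the presence of Cre cannot be told apart. The series names the libraries biological replicates.

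The sequence that sets these mRNAs apart is the 16-base stem-loop, printed here because it marks the usual end of a histone mRNA. The pattern searched, on the sense strand, was a stem of 6 base pairs that opens with GG and closes with a T-A pair, around the loop TNTN. It was found in 44 of the 67 members and in 107 of all 141767 GENCODE M21 transcripts, which is 0.075%. By class it was present in 4 of 6 H1, 11 of 20 H2A, 8 of 16 H2B, 9 of 12 H3 and 12 of 13 H4 genes. The sequences below come from the GENCODE M21 transcripts on GRCm38, with the stem-loop in capitals and 5 bases on either side in lower case.
Hist1h1c, chr13:23739507-23739532, + strand: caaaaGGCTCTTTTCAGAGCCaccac
Hist1h1e, chr13:23621777-23621802, - strand: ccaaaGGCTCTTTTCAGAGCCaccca
Hist3h2a, chr11:58955167-58955192, + strand: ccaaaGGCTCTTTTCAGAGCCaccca
Hist1h3e, chr13:23561898-23561923, - strand: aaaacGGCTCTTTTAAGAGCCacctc
Hist1h4n, chr13:21831793-21831818, - strand: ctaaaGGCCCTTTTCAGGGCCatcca
Hist1h4a, chr13:23760795-23760820, - strand: ccaaaGGCCCTTCTCAGGGCCgccca
Hist2h4, chr3:96262934-96262959, - strand: ctaacGGCCCTTTTTAGGGCCaacca

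The stem-loop came in 8 versions. The letters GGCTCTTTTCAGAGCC were shared by 24 genes of the H1, H2A, H2B and H3 classes, and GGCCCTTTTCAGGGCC by 7 genes, all of them H4. It began a median of 31.5 bases after the stop codon, with a range of 21 to 58 bases. In 22 of the 44 genes the GENCODE M21 transcript ran on for 100 bases or more beyond it. Hist1h1c, for instance, ran on for 840 bases and Hist2h4 for 1257 bases, while Hist1h4n stopped 31 bases after it. The letters were not found in the M21 models of Hist1h1a, Hist1h1b, Hist1h2bc and Hist2h2be, which says only that they are not in those models. The search did not cover the deposited models, and some of those are shorter. Hist1h1e is 748 bases there against 1930 in M21, and Hist1h4d is 393 against 1138. The search thus does not show which deposited models hold the stem-loop.

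Promoters of 60 of the 67 members were matched in RefSeq on GRCm38.p6. The windows searched ran from 250 bases before to 50 bases after the start site, on both strands. The TATA box letters TATAAA were present in 35 of 60 histone promoters (58.3%) and in 14.2% of 27025 promoters in all. CCAAT was present in 51 of 60 (85.0%) against 37.9%, in every matched H1, H2A, H2B and H3 promoter and in 3 of 12 H4 promoters. The H1 box letters AAACACA were present in 5 of 6 H1 promoters, all but Hist1h1a, against 7.14% of all promoters. The octamer ATTTGCAT was present in 7 of 18 H2A and 5 of 14 H2B promoters against 1.75%. The 250 bases before the start of Hist1h1a and Hist1h1c are shown because the libraries in which the pair were high differed, with motif matches in capitals.
Hist1h1a, chr13:23763418-23763667, + strand: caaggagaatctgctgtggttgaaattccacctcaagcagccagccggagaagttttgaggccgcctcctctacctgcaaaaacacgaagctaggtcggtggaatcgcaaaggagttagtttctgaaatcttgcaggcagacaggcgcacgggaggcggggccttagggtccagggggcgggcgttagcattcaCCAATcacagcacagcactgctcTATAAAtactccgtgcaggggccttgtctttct
Hist1h1c, chr13:23738557-23738806, + strand: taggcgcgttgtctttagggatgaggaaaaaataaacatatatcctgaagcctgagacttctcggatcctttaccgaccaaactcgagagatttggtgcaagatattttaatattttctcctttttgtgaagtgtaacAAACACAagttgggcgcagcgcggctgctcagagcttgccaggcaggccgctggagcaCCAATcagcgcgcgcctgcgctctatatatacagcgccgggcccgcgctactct

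In Hist1h1a the CCAAT began 56 bases and the TATAAA 33 bases before the start site. In Hist1h1c the AAACACA began 112 bases and the CCAAT 54 bases before it, and the letters TATAAA were not in the window. Hist1h1b, high in the same library as Hist1h1a, carries both AAACACA and TATAAA. So does Hist1h1e, which was highest in the same library as Hist1h1c. A link between these motifs and the levels was not tested.

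Totals of the authors' expected counts ran from 13812483 in control replicate 2 to 47656216 in control replicate 1. TMM factors, which rescale libraries so that most genes keep their level, ran from 0.491 in control replicate 1 to 1.61 in Ghr deletion replicate 3. Levels in CPM are expected counts scaled to each library's TMM-adjusted total. The libraries did not all look like prostate. The prostate marker Pbsn had 411 counts in control replicate 1 and 1 to 8 in the other 4 libraries, and the summed level of the 4 prostate markers was 34.1 CPM there against 0.194 to 1.05 CPM in those 4. Genes of seminal vesicle secretion took 33.9% of counts in control replicate 1, 24.2% and 26.3% in deletion replicates 1 and 2, and 0.817% and 0.345% in control replicate 2 and deletion replicate 3. In deletion replicates 1 and 2 these were mostly Svs2 and Svs5. Svs1, Svs3a, Svs3b, Svs4 and Svs6 were far below control replicate 1 there, Svs1 for instance at 6.20 and 0.0626 CPM against 78234 CPM. Ghr itself was at 14.4 and 31.3 CPM in controls against 8.13, 20.9 and 12.1 CPM with Ghr deletion (log2 fold change -0.73, SE 0.52, edgeR adjusted p = 0.995), so the groups overlapped. This is a weak check of the labels, since counts summed over the gene include exons outside any deleted stretch.

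Few counts were assigned to histone genes in every library. Reads that were not assigned to any gene were not measured. The 67 genes held 0.0120% and 0.0101% of all counts in the control libraries, against 0.0146%, 0.0261% and 0.00943% with Ghr deletion. A count was recorded for 55 members in at least 1 library and for 32 in all 5. The 12 listed at 0 everywhere were Hist1h2aa, Hist1h2af, Hist1h2ag, Hist1h2ah, Hist1h2ai, Hist1h2aj, Hist1h2ak, Hist1h2an, Hist1h2ap, Hist2h2aa1, Hist1h2ba and Hist2h3b. A total of 10 of them are H2A genes, which is 10 of the 20 H2A members. A count of 0 allows up to 3 counts, which was 0.0557 to 0.145 CPM depending on the library.

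Most histone genes are near copies of each other, so reads can be split between them or given to a copy. For each member the percent of its 50-base words that also occur in another gene was taken from the GENCODE M21 transcripts. The median was 1.13% for H1, 73.2% for H2A, 51.7% for H2B, 62.0% for H3 and 39.5% for H4. It was 82.7% over the 12 members listed at 0 and 47.0% over the 55 with a count. Words found in 9 or more other genes made up a median of 44.5% of the former and 7.40% of the latter. Hist1h1a, Hist1h1b, Hist1h1t and Hist2h2be shared no such word, whereas Hist2h2aa2 and Hist2h3c1 shared every one. Levels of single H2A, H2B, H3 and H4 genes are therefore uncertain. Class sums are less touched by splits between copies of the same class. Words shared with genes outside the class were not counted apart, so reads may also have left or entered a class sum. Some M21 transcripts are longer than the deposited models, as for Hist1h4d at 1138 against 393 bases. The percent shared by the counted models was not measured.

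**Figure D1:**
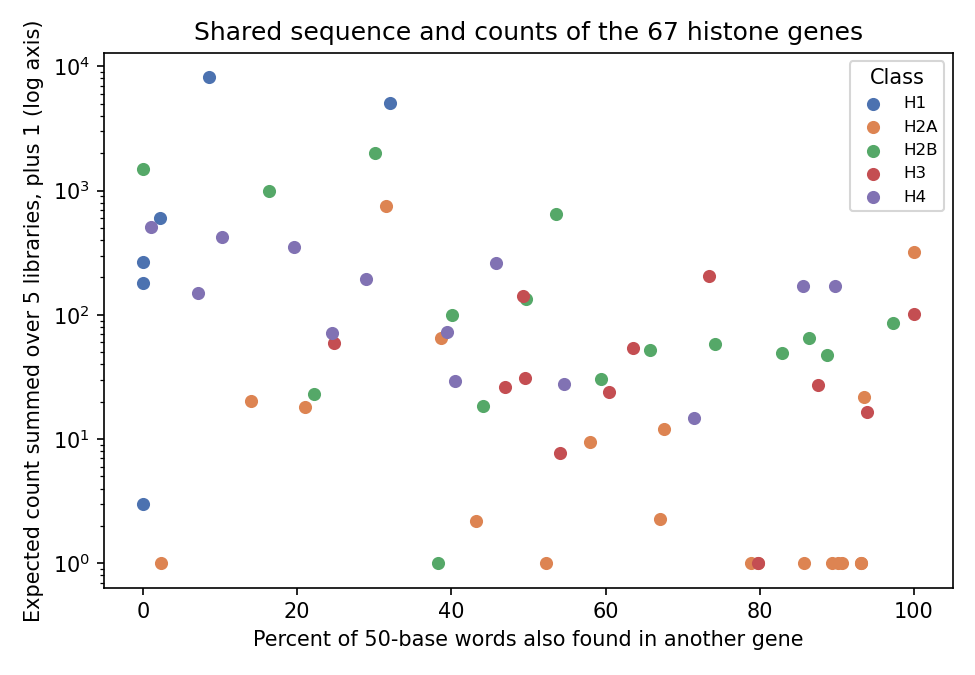
Each point is 1 of the 67 histone genes, coloured by class. The x axis is the percent of its 50-base words also found in another gene and the y axis is its expected count summed over the 5 libraries plus 1, on a log axis. Members listed at 0 sit on the bottom line, most of them H2A genes at the right.

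A total of 26 of the 67 members overlap another annotated gene, 23 of them on the opposite strand and 7 on the same strand. On the same strand, Hist1h1e shares 496 bases with Hist1h2be, and the whole of Hist3h2a lies within the span of Trim17. Hist2h3c1 shares 1825 bases with Gm20634, and Hist2h2bb shares 381 bases with Gm42743. These overlaps are of GENCODE M21 spans. The deposited length of Hist1h1e is 748 bases against 1930 in M21, so whether its counted model holds the 496 bases was not checked. Reads of same-strand pairs may have been shared. Those of opposite-strand pairs may have been too, since the strand setting of the authors' counting is not given in the sources used here.

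The single comparison of the study, Ghr deletion against tamoxifen control, asks what changes in this tissue when Ghr is deleted. In it no histone gene passed the test. Enough counts for testing were present for 34 of the 67 genes, 5 of H1, 3 of H2A, 10 of H2B, 5 of H3 and 11 of H4. edgeR called 0 of these 34 and 0.0% of all 18615 genes tested at an adjusted p under 0.05, with adjusted p of the histone genes between 0.985 and 1.00. DESeq2 called 0 of the 34 against 0.899% of all genes, and limma-voom called 0 of the 34 and 0.0% of all genes. Settings that left out libraries and called other genes called 0 histone genes too: without control replicate 2, edgeR called 0.241% of all genes tested, and without control replicate 1 and deletion replicate 3 together 0.459%. Each of these fits had 1 control library and took the spread from the deletion libraries alone, so the lone control was assumed to vary like them. At an unadjusted edgeR p under 0.05, 5 histone genes were lower in the deletion group against 3.23% of all genes, and 0 were higher against 1.69%. DESeq2 gave 6 lower (4.15% of all genes) and 0 higher (2.76%) at that level.

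By fold alone, 28 of the 34 tested histone genes were lower in the deletion group, as were 49.6% of all genes tested. Their median log2 fold change was -1.14 beside 0.0045 over all genes. That median rested on control replicate 1. On TMM-scaled CPM, 28 of the 34 were highest in that library, as were 25.5% of all genes, and without it the median turned to 0.63. On the authors' TPM, which are per length and relative to each library's own total, the median was 0.28 beside 0.76 over all genes, and 25 of the 34 stood below that all-gene median. Of the 28 genes lower on CPM, 17 had a positive log2 fold change on TPM. Hist1h1d, Hist1h2be, Hist1h3e, Hist1h3f, Hist1h4c, Hist1h4d, Hist2h2aa2, Hist2h2ac and Hist3h2a were among them. On TPM, 5 of the 34 were highest in control replicate 1 against 0.741% of all genes tested, and 12 were lowest there against 86.6%.

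**Figure D2:**
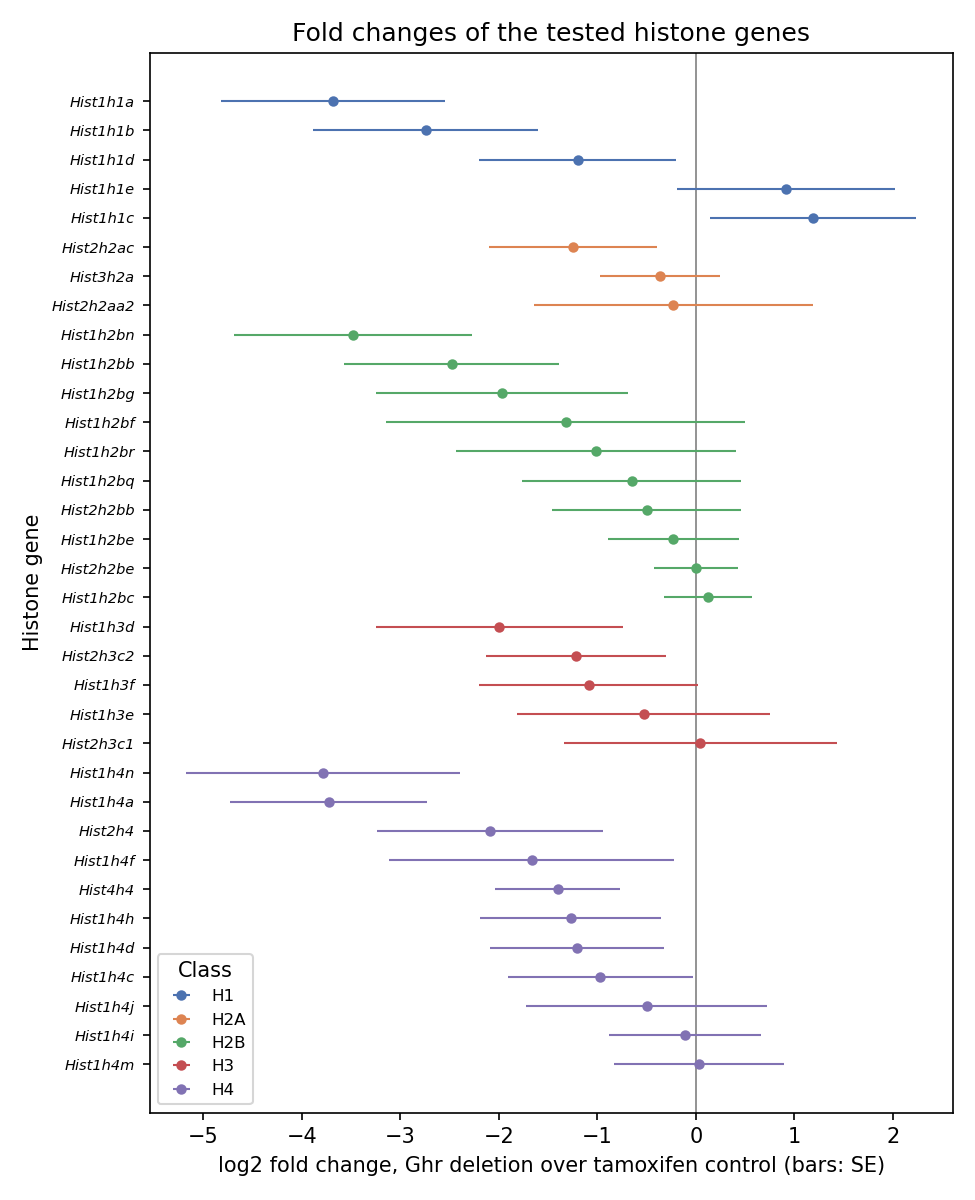
Points are edgeR log2 fold changes of the 34 tested histone genes, Ghr deletion over tamoxifen control, and bars are 1 SE. On this CPM scale most points lie left of 0, Hist1h1c and Hist1h1e stand furthest right, and no gene passed the adjusted threshold. On TPM the median of these genes was 0.28, beside 0.76 over all tested genes.

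Values of 5 tested genes did not overlap between the groups, all lower in the deletion libraries, against 10.2% of all tested genes. None of the 34 was apart in the higher direction, against 9.43% of all genes. The 5 were Hist1h2bn, Hist1h4a, Hist1h4n, Hist2h3c2 and Hist4h4, the last pair being named after their values were seen. On TPM the groups stayed apart for Hist1h2bn, Hist1h4a and Hist1h4n and overlapped for Hist2h3c2 and Hist4h4.

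By class, the summed H1 level was 112 and 21.9 CPM in controls against 80.0, 244 and 20.6 CPM with Ghr deletion. The summed H4 level was 49.6 and 7.75 CPM against 17.6, 10.3 and 5.18 CPM. Control replicate 1 was the highest library for H2A, H2B, H3 and H4 and deletion replicate 2 for H1, and deletion replicate 3 was lowest for all 5 classes. The groups overlapped in every class.

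The summed H2A level was 10.6 and 8.33 CPM in controls against 8.59, 6.39 and 6.24 CPM with Ghr deletion, the narrowest range of the 5 classes. H2B stood at 60.3 and 27.1 CPM against 36.8, 44.6 and 24.7 CPM. H3 stood at 12.6 and 2.76 CPM against 2.94, 4.85 and 1.74 CPM. The log2 ratios of the group means were 0.78 for H1, -0.42 for H2A, -0.31 for H2B, -1.27 for H3 and -1.38 for H4, and without control replicate 1 those of H2B, H3 and H4 turned to 0.39, 0.21 and 0.51. On TPM the order of the libraries was different: H4 ran only from 25.7 to 34.5 TPM. Its log2 ratio there was 0.081, beside a median log2 fold change of 0.76 over all tested genes on that scale.

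**Figure D3:**
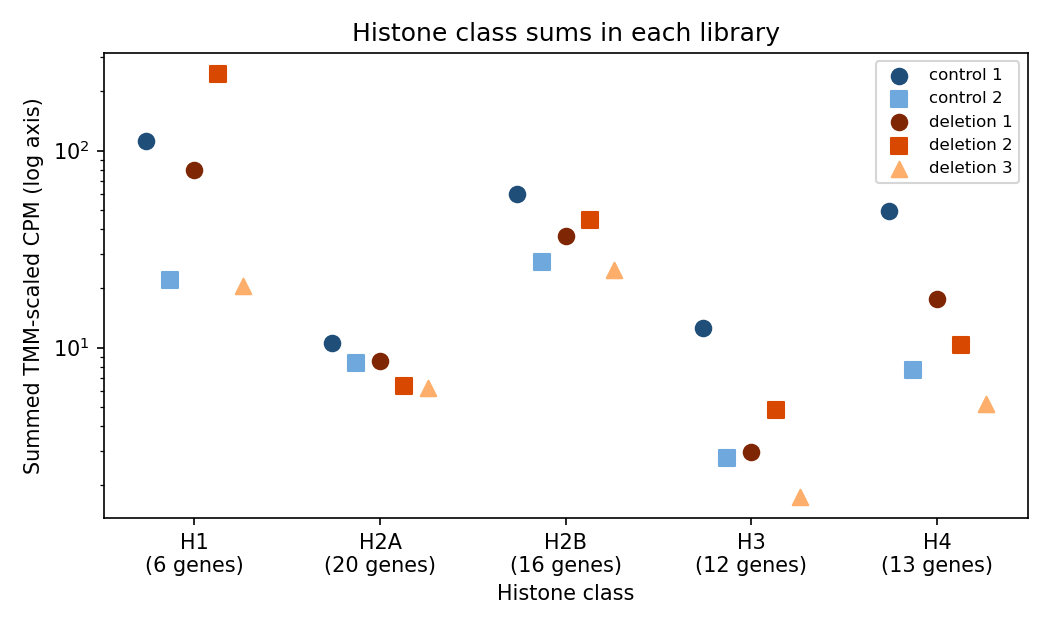
Summed TMM-scaled CPM of each histone class in each of the 5 libraries, on a log axis, with controls in blue and deletion libraries in brown and orange. H1 reaches 244 CPM in deletion replicate 2, H4 reaches 49.6 CPM in control replicate 1, and the groups overlap in every class.

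Summed over all 67 genes the level was 245 and 67.8 CPM (157 ± 126, SD, n = 2) in controls against 146, 310 and 58.4 CPM (171.6 ± 128, SD, n = 3) with Ghr deletion. The log2 ratio was 0.13. The sum and the median of the genes thus had opposite signs. Hist1h1c and Hist1h1e together held 77.3% of histone counts in deletion replicate 2. Without that library the log2 ratio of the sums was -0.62, and without control replicate 1 it was 1.34. In bulk tissue, fewer cells of a type and less RNA per cell cannot be told apart.

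The linker histone genes showed 2 patterns. Hist1h1c (chr13:23738808-23740367) and Hist1h1e (chr13:23620629-23622558) encode somatic H1 subtypes found in most tissues. Hist1h1c stood at 49.0 and 12.2 CPM in controls against 50.8, 147 and 12.0 CPM with Ghr deletion. Its log2 fold change was 1.19 (SE 1.05, edgeR adjusted p = 0.995), and without deletion replicate 2 it was 0.035. Deletion replicate 2 was the highest library, and the lowest of each group were nearly level.

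Hist1h1e followed the same order of libraries at its ends, with 36.2 and 7.75 CPM in controls against 23.4, 93.6 and 7.20 CPM with Ghr deletion. Its log2 fold change was 0.91 (SE 1.11, edgeR adjusted p = 0.995), and it turned to -0.53 without deletion replicate 2. Per length, Hist1h1e was the first of all 67 genes in control replicate 1 and deletion replicates 1 and 2, at 10.7, 23.5 and 107 TPM. In control replicate 2 and deletion replicate 3 it was second, at 14.6 and 24.8 TPM, to Hist1h2bc at 18.1 and 29.6 TPM.

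Hist1h1a (chr13:23763666-23764406), an H1 subtype known from thymus, spleen and testis, was high in 1 library alone. It stood at 9.28 and 0.436 CPM in controls against 0.491, 0.407 and 0.241 CPM with Ghr deletion. Its log2 fold change was -3.68 (SE 1.14, edgeR unadjusted p = 0.0153, adjusted p = 0.991). Control replicate 2 lay among the deletion libraries, and without control replicate 1 the fold change was -0.21. In counts the library contrast was 217 in control replicate 1 against 9 to 14 in the other 4.

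Hist1h1b (chr13:21779883-21780625), a linker subtype known from dividing cells, had the same shape. Its levels were 5.48 and 0.290 CPM in controls against 0.491, 0.626 and 0.186 CPM with Ghr deletion. The log2 fold change was -2.74 (SE 1.14, edgeR unadjusted p = 0.0489, adjusted p = 0.991) and turned to 0.56 without control replicate 1. Hist1h1d, another somatic subtype, ran at 12.3 and 1.26 CPM in controls against 4.80, 3.10 and 0.965 CPM, highest in control replicate 1 and overlapping between groups. Testis-type Hist1h1t had 2 counts in control replicate 1 and was listed at 0 in the other 4 libraries. The testis-type core genes Hist1h2aa and Hist1h2ba were listed at 0 in all 5.

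**Figure D4:**
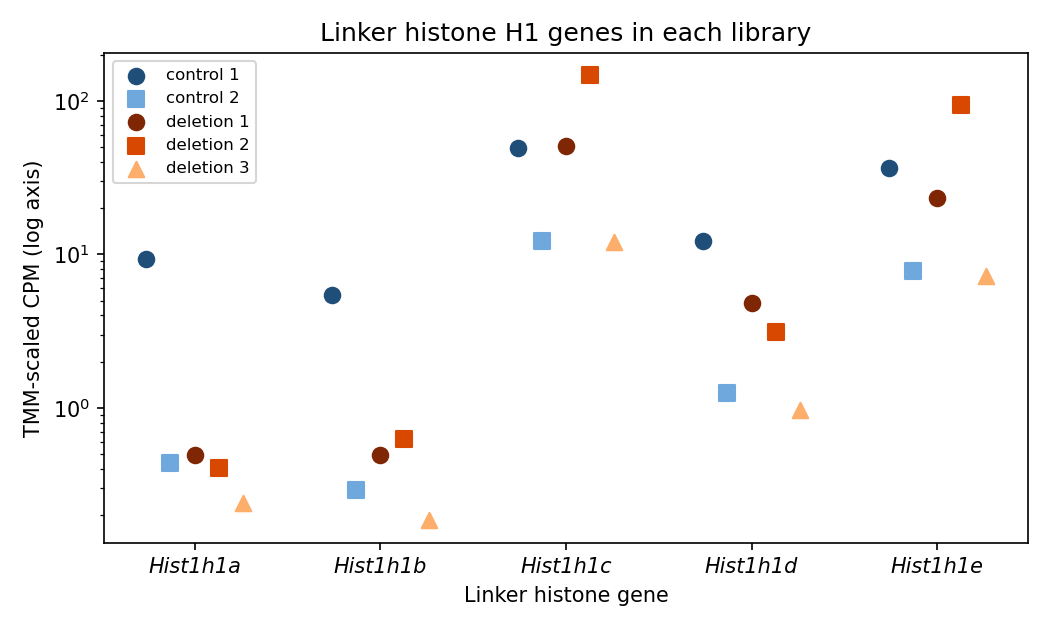
TMM-scaled CPM of the 5 tested linker histone genes in each library, on a log axis. Hist1h1a and Hist1h1b stand above 5 CPM only in control replicate 1, while Hist1h1c and Hist1h1e are highest in deletion replicate 2, at 147 and 93.6 CPM.

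Shares within a class do not depend on how libraries are scaled. Hist1h1a and Hist1h1b together made up 13.1% (95% Wilson interval 11.9 to 14.5%) and 3.31% (2.02 to 5.39%) of H1 counts in the controls. In the deletion libraries they made up 1.23% (0.850 to 1.77%), 0.423% (0.301 to 0.594%) and 2.07% (1.38 to 3.09%). The groups did not overlap, but the intervals of control replicate 2 and deletion replicate 3 did, and these intervals cover counting error only. Hist1h1c and Hist1h1e together made up 75.9% and 90.9% of H1 counts in controls against 92.8%, 98.3% and 93.2% with Ghr deletion, where the interval of control replicate 2 (88.0 to 93.3%) overlapped those of deletion replicates 1 (91.6 to 93.8%) and 3 (91.6 to 94.6%).

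Of 15 such shares, 5 did not overlap between the groups. Beside those already given, these were Hist1h1c within H1, Hist1h4n within H4 and H3 within all histone counts, which was 5.13% and 4.07% in controls against 2.02%, 1.56% and 2.98% with Ghr deletion. The shares were chosen with the values known, some are parts of each other, and no test was made on them. On the CPM of single genes, a different measure, the groups were apart for 10.2% of all tested genes in the lower and 9.43% in the higher direction.

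Among the H2B genes, Hist1h2bc (chr13:23684199-23692908) had the highest mean CPM over the 5 libraries, with Hist2h2be above it in control replicate 2 and deletion replicate 3. Its levels of 15.5 and 9.39 CPM in controls against 13.8, 18.5 and 8.41 CPM with Ghr deletion overlapped, with a log2 fold change of 0.12 (SE 0.45). Hist2h2be (chr3:96221119-96223738), known in mouse from olfactory neurons, stood at 6.80 and 11.4 against 9.25, 6.55 and 11.5 CPM, with a log2 fold change of 0.0023 (SE 0.43). It was highest in deletion replicate 3 and control replicate 2, the libraries in which most other histone genes were low. Its share of H2B counts was 42.0% and 46.5% in control replicate 2 and deletion replicate 3 and 11.3%, 25.2% and 14.7% in control replicate 1 and deletion replicates 1 and 2.

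Hist1h2be, whose GENCODE M21 span overlaps that of Hist1h1e, ran at 11.7 and 3.15 against 7.50, 8.17 and 3.36 CPM, with a log2 fold change of -0.23 (SE 0.67). Hist1h2bn (chr13:21754123-21754503) had far fewer reads, 47.7 and 5.49 expected counts in controls against 4.17, 5.03 and 1.38 with Ghr deletion. In CPM this was 2.05 and 0.242 against 0.140, 0.157 and 0.0186, a log2 fold change of -3.48 (SE 1.21, edgeR unadjusted p = 0.0235, adjusted p = 0.991). Every deletion library was below both controls, yet control replicate 2 was close to the deletion libraries, and 86.4% of the gene's 50-base words occur in other genes.

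Of the H2A genes, Hist3h2a (chr11:58954685-58956830) had the highest mean CPM over the 5 libraries, although Hist2h2aa2 was above it in control replicate 1 and deletion replicate 2. It stood at 3.59 and 7.16 CPM in controls against 4.66, 1.91 and 5.92 CPM with Ghr deletion, with a log2 fold change of -0.37 (SE 0.61). It made up 86.0% and 94.9% of H2A counts in control replicate 2 and deletion replicate 3, and 33.9%, 54.3% and 29.9% in control replicate 1 and deletion replicates 1 and 2. In those 3 libraries much of the rest came from Hist2h2aa2 (chr3:96239749-96240276). That gene stood at 4.41 and 0.678 CPM in controls against 3.15, 3.35 and 0.0557 CPM with Ghr deletion, with a log2 fold change of -0.23 (SE 1.41).

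Hist2h2ac, the remaining tested H2A gene, had 26.9 expected counts in control replicate 1 and 5 to 12 in the others (log2 fold change -1.25, SE 0.86). H3 genes were low throughout. Hist1h3e, the highest by mean CPM over the 5 libraries but not in control replicate 2 or deletion replicate 3, stood at 3.34 and 0.290 CPM in controls against 1.05, 2.60 and 0.148 CPM with Ghr deletion, with a log2 fold change of -0.53 (SE 1.28). Hist1h3f had a log2 fold change of -1.09 (SE 1.11) and overlapped in the same way. Hist2h3c1 went the other way between libraries: it was listed at 0 in control replicate 1 and stood at 1.16 CPM in control replicate 2 and 0.386, 0.376 and 1.00 CPM in the deletion libraries. The whole of its sequence recurs in other genes, so its level is uncertain.

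Among the tested histone genes, the lowest edgeR p was that of the H4 gene Hist1h4a. With DESeq2 the lowest was that of Hist1h1a (unadjusted p = 0.000865, adjusted p = 0.0805). Hist1h4n (chr13:21831767-21832196) had 129 and 19.7 expected counts in controls against 9.52, 12.5 and 0 with Ghr deletion. This was 5.52 and 0.968 CPM against 0.350, 0.376 and 0 CPM, a log2 fold change of -3.78 (SE 1.39, edgeR unadjusted p = 0.0307, adjusted p = 0.991). All 3 deletion libraries lay below both controls, but 85.6% of the gene's 50-base words occur in other genes, so its level is uncertain. Hist1h4m, another H4 gene with 89.8% of its words in other genes, did not follow it. That gene stood at 1.71 and 0.581 CPM in controls against 1.51, 1.69 and 0.353 CPM with Ghr deletion. How reads were split between such copies was not tested, and the share of Hist1h4n within H4 depends on it. The share of Hist1h4n in H4 counts was 11.1% and 12.5% in controls against 1.99%, 3.64% and 0% with Ghr deletion. The last was 0 of 279 counts, with an upper Wilson bound of 1.36%. On TPM the levels of Hist1h4n were 3.91 and 4.48 against 0.83, 1.08 and 0, and without control replicate 1 its log2 fold change was -2.02.

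Hist1h4a (chr13:23760692-23761230) had 18.4 and 5.22 expected counts in controls against 1.27, 1.06 and 2.25 with Ghr deletion, all 3 of which lie under the floor of 3 counts. Its log2 fold change was -3.73 (SE 1.00, edgeR unadjusted p = 0.00686, adjusted p = 0.985). The groups were apart, on few reads. Its stem-loop was the only one of the 44 with the letters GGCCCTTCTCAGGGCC.

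Hist2h4 (chr3:96261682-96263311) was the H4 gene with the highest mean CPM, and 1 library made it so. It stood at 13.3 and 1.02 CPM in controls against 3.47, 0.501 and 1.11 CPM with Ghr deletion, a log2 fold change of -2.09 (SE 1.14) that turned to 0.73 without control replicate 1. Hist1h4d ran at 8.13 and 1.36 against 3.05, 2.41 and 0.742 CPM (log2 fold change -1.20, SE 0.89). On TPM it was nearly level, between 6.83 and 9.15 in all 5 libraries. Hist1h4c had a log2 fold change of -0.97 (SE 0.94). Both turned positive, to 0.60 and 0.53, without control replicate 1.

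The core genes were also read by the length of their deposited gene models, because a model that runs far beyond the stem-loop can also take reads of a longer, polyadenylated transcript. The split used length alone. The stem-loop letters were not found in the M21 models of Hist1h2bc and Hist2h2be, both in the long set. Reads in long models are thus not a measure of reads beyond a stem-loop. The 14 core genes with models of 700 bases or more, among them Hist2h2be, Hist3h2a, Hist2h4 and Hist1h2bc, summed to 65.4 and 36.3 CPM in controls against 44.8, 43.3 and 34.0 CPM with Ghr deletion. The 47 shorter ones summed to 67.6 and 9.59 against 21.1, 22.8 and 3.82 CPM. In CPM the highest library was 1.92 times the lowest for the long models and 17.7 times for the short ones. On TPM that contrast turned round, with 5.25 times for the long and 1.94 times for the short, so only the relative share is free of the scaling.

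Long models took 49.1% (95% Wilson interval 47.3 to 50.9%) of core histone counts in control replicate 1 and 79.0% (76.3 to 81.5%) in control replicate 2. In the deletion libraries they took 68.0% (65.9 to 70.1%), 65.4% (63.4 to 67.4%) and 89.9% (88.5 to 91.1%). The groups overlapped, and the control libraries differed from each other by more than the counting error. The libraries with the lowest long-model shares, control replicate 1 and deletion replicates 1 and 2, were those with 24.2% to 33.9% of counts in seminal vesicle genes, and the highest shares were in the libraries with 0.817% and 0.345%. The Svs genes behind those percents differed between control replicate 1 and deletion replicates 1 and 2. The part of that tissue content in the histone values was not tested.

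**Figure D5:**
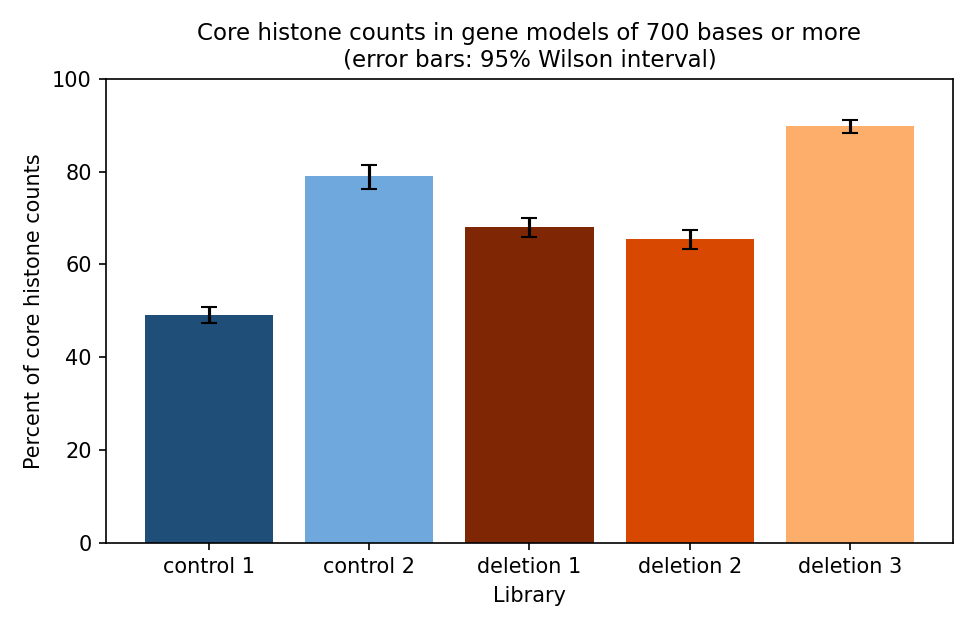
Percent of core histone counts that fell in gene models of 700 bases or more, in each library, with 95% Wilson intervals. Control replicate 1 is lowest at 49.1% and deletion replicate 3 highest at 89.9%, and the control libraries lie on either side of deletion replicates 1 and 2.

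No gene that acts on histone mRNA passed the test. Of 20 tested, 16 were lower and 4 higher by fold, their median log2 fold change was -0.19, and edgeR called 0. At an unadjusted p under 0.05, 0 were lower and 0 higher. Slbp, the stem-loop binding protein itself, stood at 19.3 and 20.8 CPM in controls against 15.7, 16.7 and 16.8 CPM with Ghr deletion. Its groups did not overlap, with a log2 fold change of -0.29 (SE 0.28, edgeR adjusted p = 0.995). On TPM it was 0.50, beside a median of 0.76 over all tested genes on that scale. Npat, the coactivator of histone gene transcription, stood at 28.8 and 28.5 against 28.6, 53.2 and 31.7 CPM (log2 fold change 0.40, SE 0.35), highest in deletion replicate 2 as were Hist1h1c and Hist1h1e.

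The smallest p-values in that group belonged to Zfp473, a zinc finger protein of the histone mRNA processing complex, Cpsf3, the nuclease that cuts histone pre-mRNA, and Srrt, a partner of the cap-binding complex. Their log2 fold changes were -1.21 (SE 0.62), 0.49 (SE 0.28) and -0.40 (SE 0.28), none past the edgeR threshold.

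Genes listed here as replication-independent histones had no common direction, with 4 of the 10 tested lower and 6 higher and a median log2 fold change of 0.069. The genes of this list were not checked 1 by 1 for a stem-loop or a poly(A) tail. edgeR called 0 of them, and 0 had an unadjusted p under 0.05. H3f3b, which encodes the variant H3.3, stood at 284 and 272 CPM in controls against 373, 1191 and 239 CPM with Ghr deletion (log2 fold change 1.11, SE 0.71). Deletion replicate 2 was thus highest for this variant too. H1f0, the linker histone of resting cells, was at 60.7 and 55.1 against 95.1, 102 and 45.5 CPM (log2 fold change 0.48, SE 0.40). H2afz and H2afx, the variants H2A.Z and H2A.X, had log2 fold changes of -0.30 (SE 0.26) and -0.71 (SE 0.59). Both turned positive on TPM but stayed below the median of 0.76 over all tested genes on that scale.

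Histone chaperones carry new histones to DNA. Of 19 tested, 13 were lower and 6 higher by fold, the median of their log2 fold changes was -0.084, and edgeR called 0. Asf1b was the only one with an unadjusted p under 0.05. It stood at 2.18 and 1.16 CPM in controls against 0.386, 0.470 and 0.613 CPM with Ghr deletion, a log2 fold change of -1.76 (SE 0.61, edgeR unadjusted p = 0.0247, adjusted p = 0.991). Chaf1a, the large subunit of chromatin assembly factor 1, was at 9.07 CPM in control replicate 1 and 1.54 to 2.29 CPM in the other 4 libraries, and Mms22l had a log2 fold change of -1.13 (SE 0.58).

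Genes of DNA replication and mitosis were mostly lower by fold, and edgeR called none of them on all 5 libraries. Without control replicate 2 it called 3 mitosis genes, Top2a, Cenpf and Cenpe (edgeR adjusted p = 0.0284, 0.0309 and 0.0415), and 0 replication genes, with the spread then taken from the deletion libraries alone. The replication list had 23 of 26 genes lower, with a median log2 fold change of -0.52, 8 at an unadjusted edgeR p under 0.05 and 0 called. DESeq2 called 4 of them at an adjusted p under 0.05. Uhrf1, which helps copy DNA methylation at the fork, stood at 16.6 and 4.89 CPM in controls against 1.26, 0.783 and 0.872 CPM with Ghr deletion (log2 fold change -3.47, SE 0.63), and without control replicate 1 the log2 fold change was -2.33. Pole, a replicative polymerase subunit, and Mcm3, of the replicative helicase, had log2 fold changes of -2.40 (SE 0.59) and -1.76 (SE 0.43), or -1.23 and -1.35 without that library. Pcna, the sliding clamp, was nearly level at 28.9 and 30.8 against 26.9, 36.9 and 22.7 CPM.

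All 23 mitosis genes were lower by fold, with a median log2 fold change of -2.98. All 23 had an unadjusted edgeR p under 0.05, against 3.23% of all genes tested that were lower at that level. edgeR called 0, and DESeq2 called 13 against 0.899% of all genes. Their summed level was 358 and 73.9 CPM in controls against 17.7, 22.0 and 13.5 CPM with Ghr deletion, so both controls were above every deletion library. The short-model core histone sum did not follow that order, since control replicate 2 stood at 9.59 CPM, below deletion replicates 1 and 2 at 21.1 and 22.8 CPM.

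Among the mitosis genes, Mki67, the marker of cycling cells, stood at 119 and 20.3 CPM in controls against 2.45, 6.33 and 2.02 CPM with Ghr deletion (log2 fold change -4.27, SE 0.85). Top2a, Cenpf and Cenpe, which act on chromosomes in mitosis, had log2 fold changes of -4.45 (SE 0.65), -4.75 (SE 0.83) and -3.80 (SE 0.71). Without control replicate 1 they were -3.07, -2.86 and -2.18, and that of Mki67 was -2.49. On all 5 libraries the edgeR adjusted p of these 4 genes was 0.985 each, and DESeq2 called all 4. The summed markers of T cells were 5.82 and 11.8 CPM in the controls and 1.28 to 2.93 CPM in the deletion libraries, with all 6 lower by fold, and those of macrophages 61.2 and 94.6 against 38.7 to 47.1 CPM, with all 6 lower by fold. In both lists control replicate 2 was the highest library, unlike the histone classes, and the part of immune cells in the histone values was not tested.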

How the data were processed

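RNA came from frozen tissue that the labels call dorsolateral prostate, and libraries were made with a stranded total RNA kit, per the labels. Tools listed in the submitters' processing notes are bcl2fastq (2.20.422), STAR (2.5.3a) and RSEM (1.3.0), with the build GRCm38. Annotation release and strand setting: not given in the sources used here. Per the file headers, each library has a table of RSEM values made by the authors. The deposited expected counts are estimates that can hold fractions, with no normalization. The deposited TPM are relative to gene length and to the library's total. Gene lengths in bases came from the same tables.

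Gene IDs were matched to GENCODE M21 symbols, and 279 of 51912 had none. Rounded expected counts were tested in R 4.3.3 with edgeR 4.0.16 (filterByExpr, TMM, quasi-likelihood test) over all 18615 genes that passed the filter, with Benjamini-Hochberg adjustment and a threshold of 0.05. The common biological coefficient of variation was 0.520 and SEs of log2 fold changes had a median of 0.530. The SE is the absolute log2 fold change over the square root of F. TPM fold changes used log2(mean TPM + 0.1) with no test. DESeq2 1.42.0 and limma-voom 3.58.1 were alternatives, as were other scalings, no filter on low counts, each library left out, and the replicate number as a block. The edgeR step was tested on simulated data.

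Named histone genes were the 3 of highest mean CPM in each class, any with an unadjusted p under 0.05, and 3 testis-type genes. From the other lists they were the 3 of smallest p plus Slbp, Npat, H2afz, H2afx, Mki67, Top2a and Pcna, and Ghr. Members and lists were chosen with earlier results of these data known. Among other markers read, urothelial sums were 79.9 and 25.2 CPM in controls against 47.0, 68.4 and 148 CPM with Ghr deletion. Upk1b held most of each sum, 77.2 CPM in control replicate 1 for instance. The other urothelial markers were highest in deletion replicate 3. Upk3a had 1046 counts there and 0 in every other library, Upk1a 1404 against 7 to 22, and Upk2 276 against 17 to 56. Akr1b7 of the vas deferens had 115 and 18394 counts against 99407, 103765 and 499. B cell and germ cell sums stayed between 0.407 and 6.13 CPM.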

Additional observations from a re-analysis of the deposited data

How the results depend on the processing

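No histone gene was called by edgeR, DESeq2 or limma-voom or under any scaling, filter or left-out library that was run. The number of all genes called did move: it was 0 in the edgeR fit, 164 with DESeq2, 8 with the replicate block, 0 to 48 when each library was left out in turn (48 when control replicate 2 was omitted and 2 when deletion replicate 3 was) and 85 without both control replicate 1 and deletion replicate 3. The median log2 fold change of the tested histone genes was -1.14. It lay between -1.29 and -1.09 with other scalings, no filter, DESeq2 and limma-voom, and between -1.98 and 0.63 with each library left out, where 0.63 was without control replicate 1. It was 1.00 without both libraries and 0.28 on TPM. The histone genes that passed the filter changed between fits, with 45 without control replicate 2 against 34 on all 5 libraries. The log2 ratio of the summed level was 0.13, with -0.62 to 1.34 over the left-out libraries, 1.75 without both and 0.92 on TPM. The cause of these moves was not tested.

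The replicate number as a block gave a median of -0.25 for the histone genes and called 0 of them. The groups share only 2 numbers, and deviations from the group means correlated at 0.13 for number 1 and at -0.14 for number 2, so the numbers do not pair the libraries. Under the block, log2 fold changes turned to 0.36 for Hist1h2be, 0.61 for Hist1h3e, 0.86 for Hist2h2aa2, -0.18 for Hist2h2be and 0.080 for Pcna.

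On TPM the sign turned for Chaf1a (0.060), H2afx (0.14), H2afz (0.36), Hist1h1d (0.37), Hist1h2be (0.98), Hist1h3e (0.88), Hist1h3f (0.020), Hist1h4c (0.16), Hist1h4d (0.17), Hist2h2aa2 (0.85), Hist2h2ac (0.27), Hist3h2a (0.32), Mms22l (0.31), Pcna (0.37), Slbp (0.50) and Srrt (0.52), while the all-gene median shifted by 0.76. Without both libraries it turned for Chaf1a (0.11), H2afx (0.17), Hist1h1a (0.039), Hist1h1b (0.93), Hist1h1d (1.64), Hist1h2be (1.31), Hist1h3e (2.63), Hist1h3f (0.95), Hist1h4c (0.99), Hist1h4d (1.00), Hist2h2aa2 (2.25), Hist2h2ac (0.44), Hist2h2be (-0.53), Hist2h3c1 (-1.60), Hist2h4 (0.96) and Pcna (0.048). Leaving out each library in turn changed the sign for these genes, with the lowest and highest values over the 5 fits. Control replicate 1 decided Hist1h1b (-3.67 to 0.56), Hist1h1d (-2.06 to 1.23), Hist1h3e (-1.64 to 2.10), Hist1h3f (-2.16 to 0.44), Hist1h4c (-1.69 to 0.53), Hist1h4d (-1.98 to 0.60), Hist2h2ac (-1.97 to 0.28) and Hist2h4 (-3.12 to 0.73). Control replicate 1 or deletion replicate 3 turned Hist1h2be (-0.88 to 1.01), Hist2h2aa2 (-1.02 to 1.68), Hist2h2be (-0.32 to 0.42) and Hist2h3c1 (-0.97 to 7.36, the last against a control library listed at 0 and so dependent on the prior count). Deletion replicate 2 turned Hist1h1e (-0.53 to 2.42), it or control replicate 2 turned Hist1h2bc (-0.20 to 0.53), and control replicate 2 turned Hist3h2a (-0.78 to 0.21). Deletion replicate 1 or 3 turned Pcna (-0.26 to 0.084).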
